A study of Mus musculus with 9 samples.

Results

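The comparison described here is that of primary murine microglia kept for 6 h in glioma-conditioned medium (GCM) from U87-MG cells with untreated microglia, 3 arrays against 3 of the 9 arrays in the series, chosen by their labels. The other 3 arrays hold microglia kept for the same time in GCM from LN18 cells, and they enter the fits and serve as a second medium. U87-MG and LN18 are established human glioblastoma lines, and GCM is medium, of the kind in which microglia are grown, that the glioma cells had conditioned before it was moved onto the microglia. All 9 samples were cells from cortices of C57BL/6J mice aged P0-P2, which were seeded on dishes for non-adherent cultures, in serum-containing DMEM. The untreated group is labelled as stimulated with nothing. Whether its medium was also changed at the start of the 6 h, and how many animals went into a culture, is not given in the sources used here. As a model the comparison is limited to neonatal mouse cells taken out of the brain and to the soluble products of 1 human line.

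Microglia are the resident macrophages of the brain, and glioblastomas hold many of them. Transforming growth factor β (TGFβ), which glioblastoma cells secrete, is known to maintain the genes that set microglia apart from other macrophages, among them Olfml3 and Cx3cr1. A further group of programmes follows the supply of nutrients. The transcription factor ATF4 turns on amino acid synthesis and uptake when amino acids run short or proteins misfold, and the SREBP factors turn on cholesterol synthesis when sterols run short. The question put to these arrays was which of the genes of microglia change when the cells meet what glioma cells release.

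The signals were log2 values of probe sets, and an array median was 3.39 to 3.41. The values had been adjusted before deposit so that the 3 arrays of each replicate number have the same mean for every probe set. A level in 1 array therefore lacks the spread between cultures and depends on the other arrays of its number, whereas the difference between GCM U87-MG and untreated within a replicate number is unaffected. These 3 differences are the data below. Each difference was tested with limma in a fit of all 9 arrays with the replicate number as a block, and p was adjusted over all 45037 probe sets. A gene is given by its brightest probe set, which left 17097 genes. All 17 measured markers of microglia and macrophages, such as Aif1, Csf1r, Trem2 and C1qa, lay above the median signal, with a mean over the list of 10.5 to 10.6 in untreated arrays and 10.6 to 10.7 in GCM U87-MG. Above that median lay 3 of 12 astrocyte markers, without Gfap or Aqp4, 5 of 10 oligodendrocyte markers, 2 of 11 neuronal markers and 1 of 12 markers of fibroblasts and vessels. Of 11 markers of border and blood myeloid cells, 5 did: Mrc1, Ms4a7, Ccr2, Cd209f and Clec4n. Some of these were bright, with a highest mean of 10.9 over the 6 arrays compared and 9.25 for Mrc1 in untreated arrays. The means over the lists of these other cell types ran from 2.92 to 4.72 in untreated arrays and from 2.87 to 4.72 in GCM U87-MG. In such bulk samples, fewer cells of a type and less RNA per cell cannot be told apart.

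The genes that rose in GCM U87-MG were Olfml3, a secreted glycoprotein of resting microglia, Cxcl14, a chemokine, Cx3cr1, the receptor for the neuronal chemokine fractalkine, Enc1, an actin-binding protein, and Gpr183, a receptor for oxysterols. These 5 genes were read by 6 probe sets at an adjusted p under 0.05, all higher, which is 0.0133% of the probe sets tested. No probe set was called lower, while 1831 were higher and 1830 lower at an unadjusted p under 0.05. Of the 6, the probe sets of Olfml3 and Cxcl14 were at least 2-fold higher, 0.00444% of those tested. Among genes read by their brightest probe set, 3 were called, or 0.0175%.

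Olfml3 had signals of 7.64, 7.18 and 7.42 in the untreated arrays 1 to 3 and of 8.79, 8.94 and 8.94 in GCM U87-MG. The groups were far apart. Its differences of 1.15, 1.77 and 1.52 gave a mean of 1.48 with an SD of 0.31, a 2.79-fold change with an SE of 0.13 and an adjusted p of 0.0176 from limma. Here and below an SE is the moderated one of that fit, drawn from all 9 arrays and from the spread of other probe sets, and not the SE of the 3 differences alone. Cxcl14 had untreated signals of 8.57, 8.50 and 8.41 and treated signals of 9.48, 9.43 and 9.66. Every replicate number showed close to the same step, 0.91, 0.93 and 1.25, with a mean of 1.03 ± 0.08 (SE) and an adjusted p from limma of 0.0170. Its second, dimmer probe set gave 1.06, with an adjusted p of 0.0662 in the same limma fit.

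Cx3cr1 was called by its dimmer probe set, whose signals rose from 5.61, 5.63 and 5.56 to 6.46, 6.51 and 6.63. The mean difference was 0.93 ± 0.07 (SE), with an adjusted p from limma of 0.0155. The brighter probe set went from 10.43, 10.23 and 10.19 to 11.03, 11.04 and 11.11, a difference of 0.78, and its adjusted p of 0.0509 from limma lay just outside the threshold. Enc1 had signals of 7.39, 7.25 and 7.35 without and 8.16, 8.24 and 8.28 with GCM U87-MG. Both of its brighter probe sets were called, at 0.90 ± 0.07 and 0.73 ± 0.06 (SE). Gpr183 went from 6.19, 6.12 and 6.12 to 6.75, 6.77 and 6.80 on its called probe set, a step of 0.63 ± 0.05 (SE) with an adjusted p from limma of 0.0176. Its brighter probe set differed by 0.60, with an adjusted p of 0.0886. In none of these 6 probe sets did a treated array overlap an untreated one, as in 8.79% of all genes on the higher side.

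**Figure D1:**
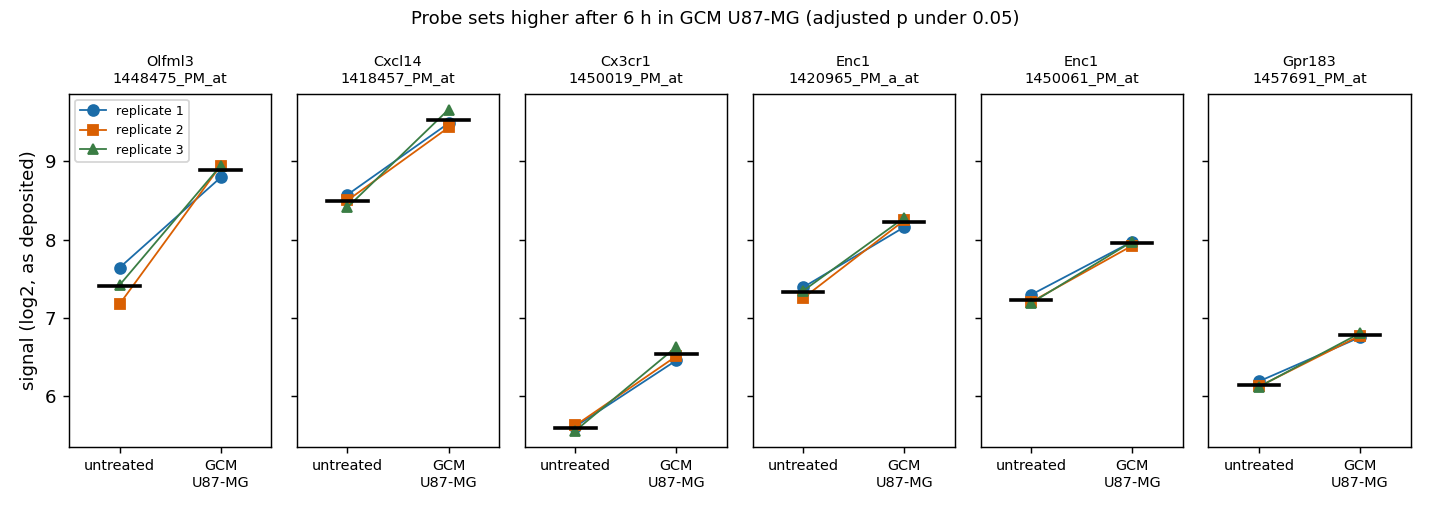
Signal (log2, as deposited) of the 6 called probe sets in untreated microglia and after 6 h in GCM U87-MG. Each line joins the 2 arrays of a replicate number and bars mark group means; all 18 lines rise, by 0.56 to 1.77.

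The calls depended on single arrays. No probe set was called when GCM U87-MG replicate 1, control replicate 2 or GCM U87-MG replicate 3 was left out. The count became 57 when the array of GCM U87-MG replicate 2 was dropped, and 27 and 16 when those of control replicates 3 and 1 were. Over the 18 alternatives the difference of Olfml3 stayed between 1.30 and 1.65 and that of Cxcl14 between 0.92 and 1.10. The adjusted p from limma ranged from 0.00279 to 0.217 for Olfml3 and from 0.000805 to 0.274 for Cxcl14. When each gene was tested once, by its brightest probe set, 8 genes were called, all higher. Those were Olfml3, Cxcl14, Enc1 and Cx3cr1 with Ctla2a, Ptger4, the receptor of prostaglandin E2, Cetn4 and the long transcript AU020206.

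Most of the named genes with the highest mean differences were not called. Tgfbi, an extracellular matrix protein named for its induction by TGFβ, had the highest mean difference among genes with a symbol. Its untreated signals were 8.11, 8.05 and 7.93 and its treated signals 10.26, 9.30 and 10.30, a difference of 1.92 ± 0.32 (SE) with an adjusted p from limma of 0.136. Array 2 of GCM U87-MG lay about 1 unit below the other treated arrays, though still above every untreated array. Some probe sets unnamed here differed by more than this one of Tgfbi, among them by 2.13 and 2.03. Their adjusted p from limma was 0.0521 and 0.0886. Ctla2a and Ctla2b, paired genes for inhibitors of cysteine proteases that are close in sequence and may share probes, differed by 1.46 and 1.58. For Ctla2a the untreated signals were 7.04, 6.86 and 7.42 and the treated ones 8.54, 8.62 and 8.54, with an adjusted p from limma of 0.0509.

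Carmil1, a regulator of actin filament ends, differed by 1.86, 0.43 and 1.89 in the 3 replicate numbers. Slco2b1, an organic anion transporter typical of microglia, gave 1.62, 0.36 and 1.18, while its dimmer probe sets averaged 0.53 and -0.07. Ch25h, which makes the oxysterol precursor of the Gpr183 ligand, gave 1.59, 0.44 and 1.10. In all 3 of these genes replicate 2 showed the smallest step. The reverse held for Fabp7, a fatty acid binding protein, at 0.40, 2.53 and 0.84, and for Id1, a target of BMP signalling, at 0.12, 2.99 and 0.21. In both, the mean came mainly from replicate 2. AI504432 differed by 1.05 and AU020206 by 1.03. Of these 12 genes with the highest means, 2 were called. In 11 the groups did not overlap, beside 8.79% of all genes on the higher side, a count that choosing them by mean and shared sign nearly fixes.

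At the other end stood Slc40a1, which encodes ferroportin, the exporter of iron from cells. Its signals were 10.09, 9.12 and 9.33 in untreated arrays and 7.64, 8.39 and 7.82 in GCM U87-MG. All treated arrays lay below all untreated ones, and the differences of -2.44, -0.73 and -1.51 averaged -1.56 with an SD of 0.85. The SE from the limma fit was 0.29 and the adjusted p 0.180. A second probe set gave -1.47. Of the 12 lowest genes, 7 were members of the list of ATF4, amino acid and ER stress genes: Asns, Phgdh, Trib3, Atf5, Chac1, Slc7a5 and Psph. Beside Slc40a1, the others were Pck2, the mitochondrial enzyme that makes phosphoenolpyruvate, Insig1, which holds the SREBP factors back, Acss1, a mitochondrial enzyme that makes acetyl-CoA from acetate, and Slamf8, a receptor of macrophages. None of the 12 was called. In 12 of 12 the groups did not overlap, beside 10.3% of all genes on the lower side, which the same choice nearly fixes. In 10 of 12 the difference was largest in replicate 1.

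**Figure D2:**
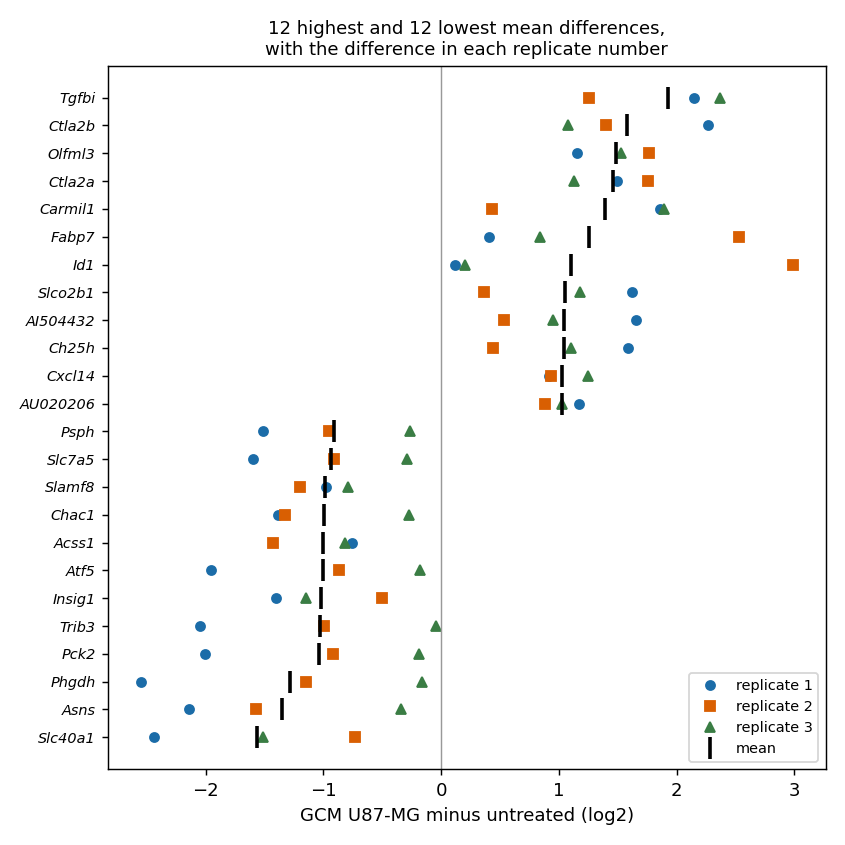
Difference between GCM U87-MG and untreated microglia (log2) in each replicate number for the 12 genes with the highest and the 12 with the lowest mean, among genes whose 3 differences share a sign. Black ticks are means; the points of Cxcl14 and AU020206 lie close together, while those of Id1, Fabp7 and the amino acid genes spread over more than 1 unit.

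The genes of the ATF4 programme leaned lower in GCM U87-MG, with most of the difference in replicates 1 and 2. Of 34 measured, none was called, while 17 were lower and 3 higher at an unadjusted p under 0.05, against 4.84% and 4.48% of all genes. Like the other gene lists, this one was written with earlier results of these data known. Neither its counts nor its share of the lowest genes above are therefore independent evidence of its direction. In all 3 replicate numbers 16 were lower and 4 higher, against 13.3% and 11.2% of all genes. The median difference was -0.34, beside -0.003 over all genes, and it was -0.71, -0.20 and -0.14 in replicates 1 to 3. Atf4 itself was the member with the lowest p. Its signals were 9.97, 9.92 and 9.76 untreated and 9.28, 9.31 and 9.25 in GCM U87-MG, a difference of -0.60 ± 0.09 (SE) with an adjusted p from limma of 0.0964. Unlike its targets, it differed on this probe set by nearly the same amount in each replicate number, -0.68, -0.60 and -0.51. A second, dimmer probe set of Atf4 averaged only -0.02.

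Asns, asparagine synthetase, had untreated signals of 9.76, 9.01 and 8.55 and treated signals of 7.62, 7.44 and 8.20. The groups did not overlap, and the differences were -2.14, -1.57 and -0.34. The enzymes of serine synthesis followed the same order of size, with Phgdh at -2.55, -1.15 and -0.16 and Psph at -1.52, -0.96 and -0.26. Psat1, the remaining enzyme of that pathway, gave -0.94, -0.64 and 0.02. Among the transporters, Slc7a5, which imports large neutral amino acids, had a mean of -0.93 and Slc7a1, which imports arginine and lysine, of -0.52. Of the 3 probe sets of Slc7a1, 2 were lower and a dimmer one averaged 0.15. The tRNA synthetases Aars and Gars averaged -0.72 and -0.53. Chac1, which degrades glutathione, averaged -0.99, and Trib3, an inhibitor that feeds back on ATF4, -1.03. The members on the higher side were of another kind. Creld2, Manf and Hsp90b1, all higher at an unadjusted p under 0.05, work in protein folding in the endoplasmic reticulum, with means of 0.44 for Creld2 and 0.33 for Manf.

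ATF4 binds, with partners of the C/EBP family, a composite element whose letters are TGATGNAA. To show where the members carry it, the 250 bases before the start of each gene were searched on both strands in promoters from RefSeq (GRCm38.p6). It was found in 9 of 34 windows of this list, from 30 genes with a window, or 26.5%, against 3.45% of 32851 windows of all genes. A match to these letters describes the sequence and is no measure of binding. Of the genes that hold it, 6 had an unadjusted p under 0.05 and 3, Atf3, Slc7a11 and Vldlr, did not. The stretches below show the match in capitals with 10 bases on either side, read in the direction of the gene, and are given for 5 of these 6 genes.

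Asns (chr6:7693215-7693242, - strand): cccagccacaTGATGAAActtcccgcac
Chac1 (chr2:119351039-119351066, + strand): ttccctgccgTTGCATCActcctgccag
Gars (chr6:55037961-55037988, + strand): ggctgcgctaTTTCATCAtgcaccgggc
Herpud1 (chr8:94386307-94386334, + strand): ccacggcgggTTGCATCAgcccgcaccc
Nupr1 (chr7:126625563-126625590, - strand): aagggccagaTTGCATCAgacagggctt

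In Asns the match begins 23 bases before the start of the gene and in Gars 30 bases, and in Herpud1 and Nupr1 it lies 112 and 110 bases before it. Only Asns of these 5 has the element in the forward reading, and the others have its reverse complement. Their mean differences were -1.35 for Asns, -0.99 for Chac1, -0.76 for Nupr1, -0.53 for Gars and -0.49 for Herpud1. All 5 were lower in every replicate number, beside 13.3% of all genes, which choosing them by a low p nearly fixes. Atf3, Slc7a11 and Vldlr, which hold the element without a low p, averaged -0.09, -0.35 and -0.04.

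The genes of cholesterol and fatty acid synthesis, also listed with earlier results known, leaned lower too. Of 29 measured, none was called, and 17 were lower and 0 higher at an unadjusted p under 0.05, against 4.84% and 4.48% of all genes. In all 3 replicate numbers 19 were lower and 0 higher, against 13.3% and 11.2% of all genes. In 18 the groups did not overlap on the lower side, against 10.3% of all genes. The median was -0.35, with -0.43, -0.40 and -0.16 in replicates 1 to 3. Insig1 had untreated signals of 7.63, 7.39 and 7.63 and treated signals of 6.22, 6.89 and 6.48, a mean difference of -1.02 ± 0.18 (SE). Lss, which closes the sterol ring, went from 5.81, 5.92 and 5.68 to 4.62, 5.07 and 5.07, a difference of -0.89 ± 0.17 (SE). For both genes every treated array lay below every untreated one. The steps before it in the pathway, Fdft1, Mvd and Sqle, had means of -0.78, -0.77 and -0.56, and the later Sc5d of -0.61. Acss2, which makes acetyl-CoA in the cytosol, gave -0.68, -0.82 and -0.31, the lowest p of the list, with an adjusted p from limma of 0.125. Srebf2, the factor that drives the pathway, averaged -0.31. The members near 0 included Scap and Insig2, the partners of the SREBP factors in the membrane. The sterol response element searched as TCACNCCAC stood in 1 of 28 windows of the list, from 23 genes with a window, or 3.57%, against 1.05% of all windows.

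**Figure D3:**
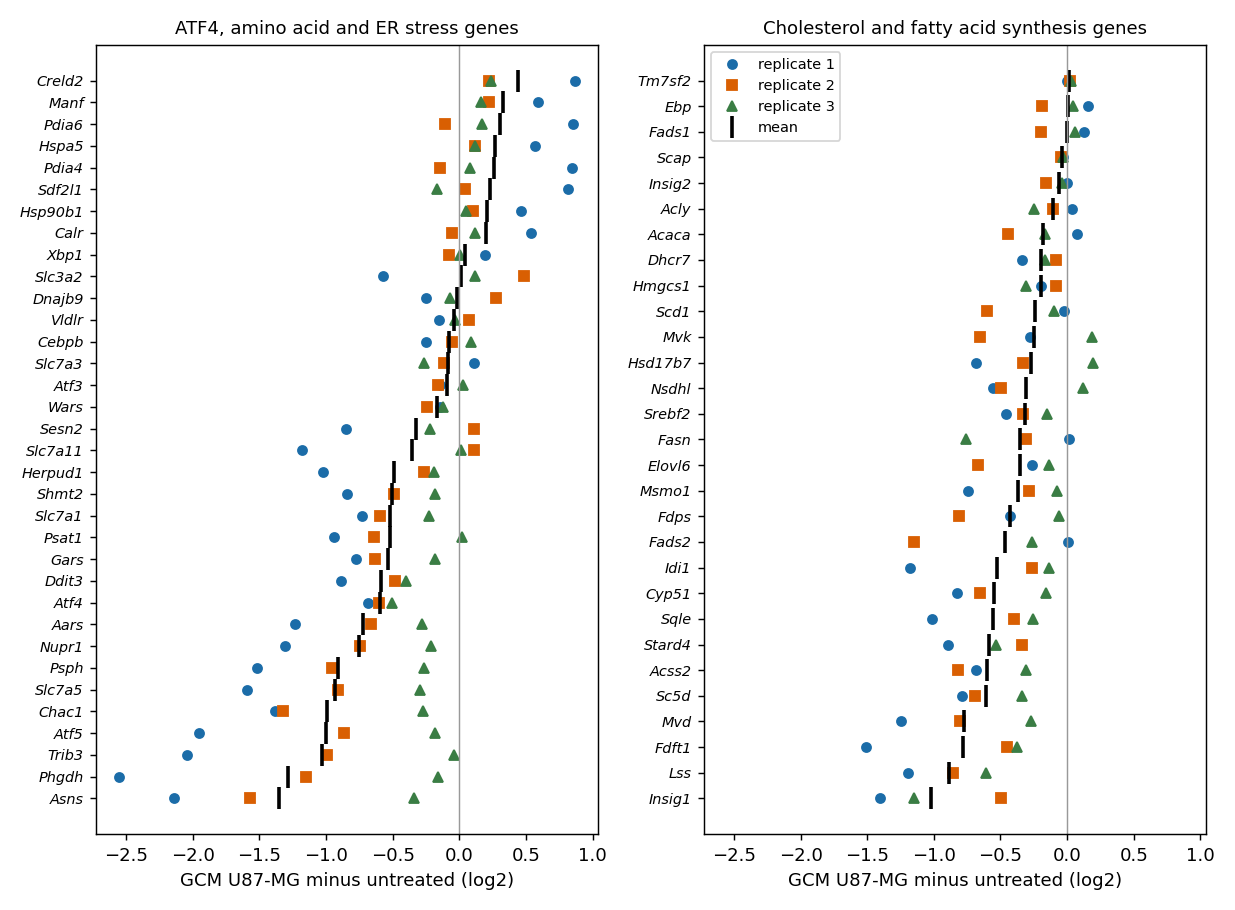
Difference between GCM U87-MG and untreated microglia (log2) in each replicate number for 34 genes of the ATF4, amino acid and ER stress list and 29 of cholesterol and fatty acid synthesis, ordered by the mean (black tick). Replicate 1 holds the lowest point of 22 of the 34 and of 15 of the 29 genes, and replicate 3 of 4 and 3.

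Iron and redox genes, also listed with earlier results known, were on the lower side where their unadjusted p was under 0.05. Of 24, none was called, and 7 were lower and 0 higher at that p, against 4.84% and 4.48% of all genes. The median was -0.17. After Slc40a1 came Gsr, glutathione reductase, at -1.01, -0.43 and -0.35, with a mean of -0.60 ± 0.12 (SE). Gclc, which starts glutathione synthesis, averaged -0.39, and Txnrd1, thioredoxin reductase, -0.29. Hmox1, which frees iron from haem, gave -0.84, -0.02 and -0.13, so that its mean of -0.33 came almost wholly from replicate 1. The ferritin chains Fth1 and Ftl1 differed by -0.04 and -0.02. Replicate 1 held the lowest difference of 18 of the 24 genes.

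The genes of homeostatic microglia lay on both sides of 0. Of 25 measured, 1 was called by its brightest probe set, Olfml3, beside 0.0175% of all genes, and a dimmer one added Cx3cr1. At an unadjusted p under 0.05, 9 were higher and 4 lower, against 4.48% and 4.84% of all genes. The median was 0.18. Fcrls, an Fc receptor-like protein of microglia, went from 9.81, 9.85 and 9.90 to 10.25, 10.30 and 10.23, a difference of 0.41 ± 0.06 (SE) with an adjusted p from limma of 0.0964. Its groups did not overlap. Gpr34, a lysophospholipid receptor, averaged 0.63 and Mef2c, a transcription factor, 0.30. P2ry12 and Tmem119 were dim, with untreated means of 3.44 and 3.88, and differed by 0.27 and 0.30. On the lower side were Gas6, a bridge to dying cells, at -0.28, Entpd1, which breaks down ATP outside the cell, at -0.26, Sall1, a transcription factor of microglia, at -0.24, and P2ry13 at -0.22. A dimmer probe set of Gas6 averaged 0.06.

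Genes of TGFβ signalling and its targets leaned higher, none of them called. Of 30 measured, 9 were higher and 2 lower at an unadjusted p under 0.05, against 4.48% and 4.84% of all genes. In all 3 replicate numbers 12 were higher and 4 lower, against 11.2% and 13.3% of all genes. The median was only 0.08, and the upper quartile was 0.42. Among its receptors and activators, Tgfbr1 averaged 0.47 and Itgav, an integrin chain that binds latent TGFβ, 0.54. Of the 3 probe sets of Tgfbr1, 2 were higher and a dimmer one averaged -0.01. Among the feedback genes, Smad7 gave 0.40, 0.67 and 0.65, with a mean of 0.57 ± 0.12 (SE), and Skil gave 0.17, 1.18 and 0.95. Cdkn2b averaged -0.46 and Nrros, which tethers latent TGFβ to microglia, -0.17. The Smad-binding letters CAGAC stood in 17 of 25 windows of the list, or 68.0%, against 42.2% of all windows. These windows came from 18 of the 30 genes, and 13 genes held the letters. Itgb5, an integrin chain that also binds latent TGFβ, belonged to the list of integrins, in which 5 of 30 genes were higher and 0 lower at an unadjusted p under 0.05. It differed by 0.65, 0.84 and 0.63, with a mean of 0.71 ± 0.09 (SE) and an adjusted p from limma of 0.0662.

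A further list held genes taken from the study's text, some named there for the cultures and some for microglia and macrophages in gliomas. Of the 19 measured, 12 were higher and 1 lower at an unadjusted p under 0.05, against 4.48% and 4.84% of all genes. By its brightest probe set 1 was called, Cxcl14, beside 0.0175% of all genes, and a dimmer one added Cx3cr1. The study chose part of the list on these samples, so that it is not independent evidence of its direction. Besides the genes above, Tgm2, a transglutaminase that links matrix proteins, differed by 0.42, 1.23 and 1.18, with a mean of 0.94 ± 0.30 (SE). A dimmer probe set of Tgm2 averaged 0.07. Socs2, a feedback inhibitor of cytokine receptors, gave 1.12, 0.12 and 1.12, while its dimmer probe sets averaged 0.36, -0.07 and -0.02. Arg1, arginase, was dim, at 3.27, 2.92 and 2.35 untreated and 3.87, 3.20 and 3.94 in GCM U87-MG, and its groups overlapped. The differences were small for Myc at 0.11, Irf7 at 0.19, Mmp14 at 0.24 and Gpnmb, a glycoprotein of disease-associated microglia, at -0.04. Mmp14 ran from -0.57 in replicate 1 to 1.17 in replicate 3. Ifnb1 and Il2ra stayed below 2.9 in all 6 arrays, under the array median.

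Most inflammatory genes lay near 0. Of 29 genes driven by NF-κB, 0 were higher and 5 lower at an unadjusted p under 0.05, against 4.48% and 4.84% of all genes. The median was -0.06, with -0.31, 0.03 and -0.05 in replicates 1 to 3, and replicate 1 held the lowest difference of 24 of the 29. Il1rn, the antagonist of the interleukin 1 receptor, averaged -0.51 ± 0.08 (SE), Tnfaip2 -0.90 ± 0.22 (SE) and Tnf -0.42. Of 36 chemokines and their receptors, 6 were higher and 5 lower. Beside Cxcl14 and Cx3cr1, the neutrophil chemokine Cxcl2 gave -1.45, -0.76 and -0.31, and Ccl3 and Ccl4, chemokines of the CC family, averaged -0.40 and -0.35. Of 21 genes of disease-associated microglia, 0 were higher and 4 lower, with Cst7, a cystatin, at -0.65 and Ccl6 at -0.39. Of 19 genes of alternative activation, 4 were higher, among them Tgm2 and Arg1, and 3 lower, among them Mrc1 at -0.27.

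Interferon response genes had differences of opposite sign in different replicate numbers. The list median was -0.86 in replicate 1 and 0.33 and 0.29 in replicates 2 and 3, and 21 of 23 genes were below 0 in replicate 1 against 4 in each of the others. Ifit1, an antiviral protein that interferon induces, differed by -1.55, 0.51 and 1.77, and Gbp2, a GTPase that interferon induces, by -2.23, 0.77 and 0.57. Only Irf8, a factor of the macrophage lineage, was higher in all 3 at an unadjusted p under 0.05, with a mean of 0.29. Cell cycle genes spread in another way. Their median was 0.54, 0.12 and -0.10, with 28 of 32 above 0 in replicate 1 and 8 in replicate 3, and Mki67, a marker of dividing cells, gave 0.91, 0.20 and 0.07. Over all genes the median size of a difference was 0.112, 0.0987 and 0.0850 in replicates 1 to 3. In replicate 1, 28 genes were at least 2-fold higher and 64 at least 2-fold lower, and in replicate 3 these were 36 and 6. The part of this spread in the ATF4, cholesterol and iron genes was not tested.

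**Figure D4:**
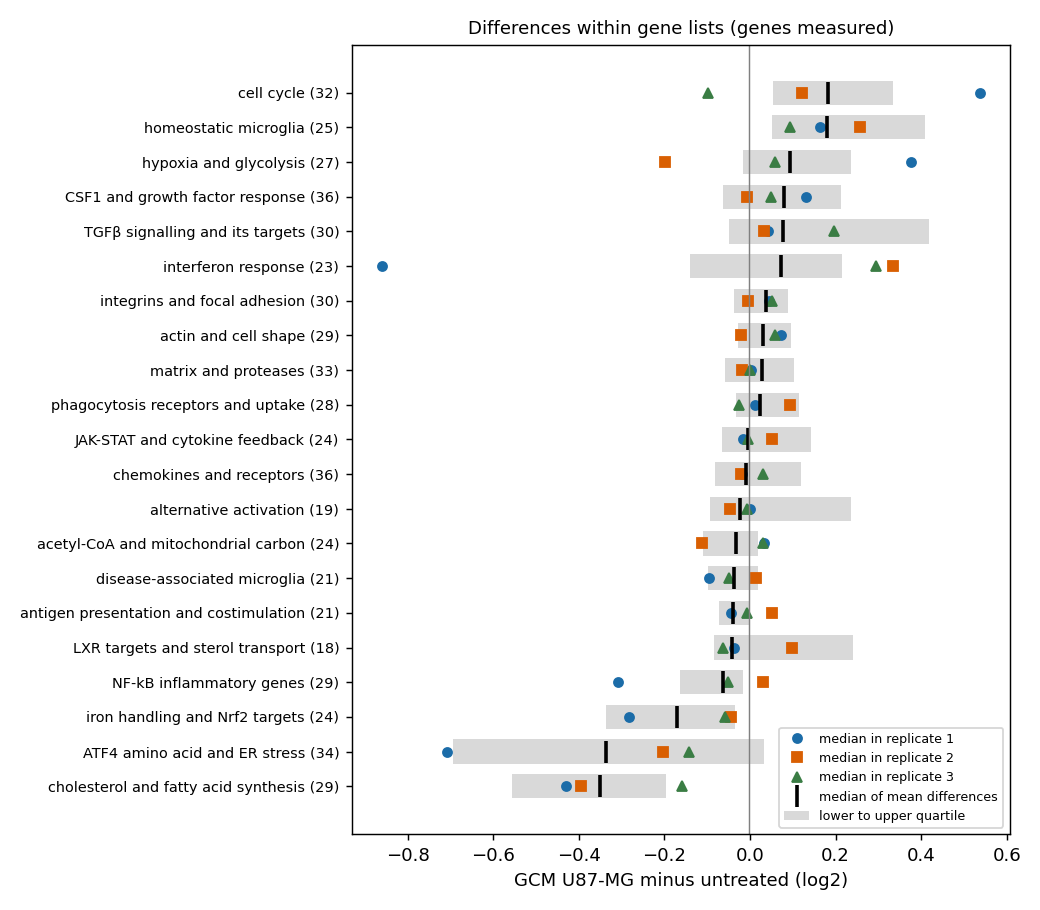
Differences between GCM U87-MG and untreated microglia (log2) in 21 gene lists, with the number of genes measured in parentheses. Black ticks are medians of the mean differences, grey bars run from the lower to the upper quartile of members and symbols the list median in each replicate number; cholesterol synthesis and ATF4 genes have the lowest medians, -0.35 and -0.34, and the interferon list has its replicates on both sides of 0.

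In the remaining lists no gene was called by its brightest probe set. Their counts at an unadjusted p under 0.05 stand beside 4.48% of all genes higher and 4.84% lower. Of 33 genes of matrix and proteases, 5 were higher, Tgfbi, Fn1, Adam10, Ctla2a and Ctla2b, and 5 lower at an unadjusted p under 0.05. Fn1, fibronectin, differed by 0.79, 0.41 and 0.52. Mmp9, a gelatinase, gave -0.83, -1.83 and -0.06. Of 28 genes of phagocytosis, 4 were higher, among them the Fc receptor Fcgr1 at 0.46, and 2 lower, among them the scavenger receptor Marco at -0.82. Of 36 genes of CSF1 and growth factor response, 6 were higher, with the factor Ets1 at 0.63, and 1 was lower, its relative Ets2 at -0.47. In hypoxia and glycolysis, 2 of 27 were higher and 2 lower, with the hexokinases on both sides: Hk2 at 0.35 and Hk1 at -0.21. Of 29 genes of actin and cell shape, 4 were higher, with Carmil1 far above Cnn2 at 0.50 and Myh9, a non-muscle myosin, at 0.41, and 1 was lower, Rac2 at -0.31. Of 18 LXR targets and genes of sterol transport, 4 were higher, Ch25h, Gpr183, Mylip and Osbpl3, and 0 lower. Of 24 genes of acetyl-CoA and mitochondrial carbon, 1 was higher and 3 were lower, of which Acss1 was the lowest, with treated signals of 6.01, 5.86 and 6.06 against 6.77, 7.29 and 6.87 untreated. Dimmer probe sets of Acss1 averaged -0.14 and -0.01. Of 24 genes of JAK-STAT feedback, 4 were higher and 0 lower, and of 21 genes of antigen presentation, 2 were higher and 1 lower.

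GCM from LN18 gave the second medium against which the values could be set. The 2 media share their untreated arrays, so that their differences from untreated are given side by side and only the difference between the media was tested. No probe set was called between GCM U87-MG and GCM LN18, 0% of those tested, with 2152 at an unadjusted p under 0.05 and a lowest adjusted p from limma of 0.0912. Olfml3 was 1.48 in GCM U87-MG and 1.70 in GCM LN18 above untreated, Cxcl14 1.03 and 1.19, and Enc1 0.90 and 0.88. The 95% interval of the difference between the media was -0.52 to 0.07 for Olfml3, -0.35 to 0.03 for Cxcl14 and -0.14 to 0.17 for Enc1. For Cx3cr1 on its called probe set, the values were 0.93 and 1.20, with an interval of -0.42 to -0.11.

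Of the 12 highest genes, 10 were less high in GCM U87-MG than in GCM LN18, and 1, Carmil1, had an unadjusted p under 0.05. Carmil1 was 1.39 above untreated in GCM U87-MG and 2.33 in GCM LN18, a difference of -0.94 with an interval of -1.54 to -0.34. Tgfbi was 1.92 and 2.52, with an interval of -1.33 to 0.14. Arg1 was 0.82 and 1.90, with an interval of -1.85 to -0.31, and Tgm2 0.94 and 1.68, with an interval of -1.43 to -0.05. Of the 12 lowest genes, only 2, Slc40a1 and Insig1, were less low in GCM U87-MG than in GCM LN18. The others were lower in GCM U87-MG, and none of the 12 had an unadjusted p under 0.05 between the media. Slc40a1 was -1.56 and -2.05, with an interval of -0.16 to 1.14, and Asns -1.35 and -1.26, with an interval of -0.91 to 0.71. Atf4 on its brighter probe set was -0.60 and -0.56, with an interval of -0.24 to 0.16. No difference between the media that is named here was called after adjustment over all probe sets.

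**Figure D5:**
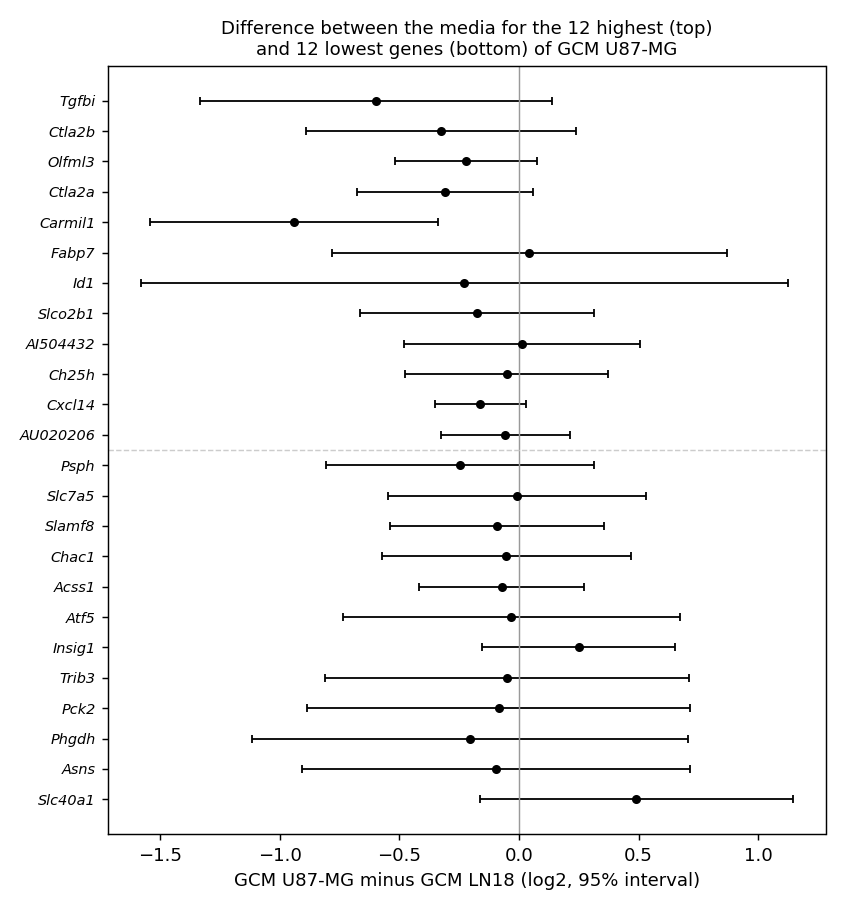
Difference between GCM U87-MG and GCM LN18 (log2) with its 95% interval from the limma fit, for the 12 genes highest (above the dashed line) and the 12 lowest in GCM U87-MG against untreated. The interval of Carmil1, -1.54 to -0.34, lies below 0 and the other 23 span it.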

How the data were processed

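Mouse microglia were measured on Affymetrix MG-430 PM strip arrays, 3 per group and 9 in all. The authors deposited log2 signals, 1 for each of 45141 probe sets, already normalized. The methods name RMA for pre-processing raw arrays, in a section on several data sets, and it is not certain that this covers these arrays. The submitters' processing notes name limma, with no version. In these values the 3 arrays of every replicate number have equal means for 100% of probe sets within 1e-06. The design text states biological replicates from separate cortical cultures, but not that a number marks the same culture in every group, and since the means were removed the pairing could not be checked from the values. The p-values rest on the residual spread of all 9 arrays, GCM LN18 included, moderated by the spread of other probe sets. They do not measure the spread of the 3 differences alone.

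Control probe sets (104) were left out, and 28689 probe sets were named through gene identifiers. Those with more than 1 symbol (551) and those unnamed here (15588) were tested but not named. limma 3.58.1 in R 4.3.3 (lmFit, eBayes) was fitted with group means and replicate number as a block, with 4 residual degrees of freedom, and Benjamini-Hochberg adjustment over 45037 probe sets. Calls were made at 0.05. Arrays have no read depth, and their number limits the precision. Named genes are those with a called probe set, the 12 highest and 12 lowest mean differences among genes whose 3 differences share a sign and whose signal is at least the median, the genes the study named, and up to 3 genes with the lowest p of each of 28 lists. Further list members were named after their values were seen. The comparison, the members and the lists were chosen with earlier results of these data known. Fits were tested on simulated data, 10 sets of 45037 probe sets for GCM U87-MG against control. Each set held 100 changes of either size, equal in all 3 replicates, with noise independent between arrays. In them 97.3% of the 2-fold and 64.3% of the 1.41-fold changes were recovered and 4.56% of calls were false. In the real arrays many differences varied by replicate number, so these rates need not hold there. Alternatives were the fit without the block, only the 6 arrays compared, trend and robust eBayes, dim probe sets left out, 1 probe set or the mean of probe sets per gene, quantile normalization, median centring, array weights, and each array or replicate number left out. The sequence of 1 further promoter window is not reported here.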

Additional observations from a re-analysis of the deposited data

How the results depend on the processing

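The main counts were 6 called probe sets, 2 of them at least 2-fold, and 0 between the media. Without the replicate block 359 were called (201 higher, 158 lower), 24 of them at least 2-fold, and 1 between the media; that fit does not count the removed replicate means, and in simulated data 38.87% of its calls were false. The same fit kept all 6 probe sets. With only the 6 arrays compared, which leaves 2 residual degrees of freedom, 0 were called and 0 at least 2-fold, with 2515 at an unadjusted p under 0.05. Trend and robust eBayes called 48 (32 higher, 16 lower), 6 at least 2-fold, and median centring 17 (14 higher, 3 lower), 5 at least 2-fold, and both kept the 6. With 1 probe set per gene 4 genes were called at least 2-fold. Array weights called 1 between the media. The cause of the other changes was not tested. With 1 array or replicate number left out, 0 to 57 probe sets were called, 0 to 23 at least 2-fold, and 0 between the media in each. No probe set was called without GCM U87-MG replicate 1 (2593 at an unadjusted p under 0.05), control replicate 2 (3380), GCM U87-MG replicate 3 (3664), replicate 1 (2834) or replicate 3 (3907), and without replicate 2 Olfml3 kept its call among 16. No called gene changed sign, and of 98 named genes at most 1 changed sign under any alternative. The fit of the 6 arrays gives no value for the difference between the media. With 3 arrays per group, differences near 1.41-fold were often missed in the simulated data.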
